A study of Mus musculus with 31 samples.

Results

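The 13 features described here were read almost only from the JF1 allele in the cortex of mouse hybrids between C57BL/6J (B6) and JF1. They are the autosomal features with at least 200 read bases pooled in each cross over the E13.5 and P0 libraries and a B6 share of at most 10% in both crosses, with symbols of ribosomal proteins that begin Rpl or Rps left out. These 13 were found among 9645 features that met the floor, of 17484 features in all. A read base is a sequenced base at a position where the strains differ, and the B6 share is the percentage of a feature's read bases that carry the B6 base. RefSeq lists the names 6430706D22Rik and A730008H23Rik as synonyms of Hjurp, so 3 of the features belong to 1 gene and the 13 features stand for 11 loci. The other 10 features are Tsnax, Morf4l1, Gstp2, Ppme1, Mir684-1, Gm3020/Gm8348, Ppih, 4933409K07Rik, Gm8615 and Akirin1.

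The study measured RNA of each parental allele in hybrid embryonic stem cells (ESCs), in cells differentiated from them in culture to day 12 (d12) and day 21 (d21), and in cortex of embryos at E13.5 and of newborns at P0. The BJ1 hybrids had a B6 mother and a JF1 father, and the JB6 hybrids came from the reciprocal cross. ESC, d12 and d21 had 4 libraries each, with 2 of each cross, and all 12 were from male cells. E13.5, with tissue labelled DT, had 3 BJ1 and 3 JB6 libraries, and P0, with tissue labelled Ctx, had 4 BJ1 and 3 JB6 libraries, and 11 of these 13 libraries were female. The B6 parent of the cultured lines carried an Oct4-GFP transgene, per the labels. Differentiation took place in a defined medium (DDM) with the Hedgehog inhibitor cyclopamine from day 2 to day 10.

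B6 is the strain on which the mouse reference genome is built, and JF1 is a Japanese fancy mouse strain that descends mainly from Mus musculus molossinus. In an F1 hybrid both alleles share 1 nucleus, so a gene read from the same strain's allele in both reciprocal crosses follows the strain, whereas an imprinted gene follows the parent. Some genes have near-identical relatives elsewhere in the genome, among them processed pseudogenes, which are DNA copies of a spliced messenger RNA.

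Coding sequence of 3 members is shown beside that of another gene that it nearly matches, because such pairs recur among the members. The sequences are 120-base stretches of GENCODE M21 transcripts on GRCm38, read 5′ to 3′. In a member's line capitals mark the bases that differ from the next gene shown, and in the other lines they mark the bases that differ from the member. Which of these bases differ between B6 and JF1 was not analysed here. Gstp2, a glutathione S-transferase of the pi class, is on chromosome 19 beside Gstp1, and Gstp-ps is on chromosome 1. Gstp1 differed from Gstp2 at 6 of these 120 bases and at 13 of 707 aligned bases, and Gstp-ps at 2 of these and at 5 of 631 aligned bases.
Gstp2: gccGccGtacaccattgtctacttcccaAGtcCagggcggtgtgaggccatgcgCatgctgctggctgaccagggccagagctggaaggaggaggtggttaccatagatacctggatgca
Gstp1: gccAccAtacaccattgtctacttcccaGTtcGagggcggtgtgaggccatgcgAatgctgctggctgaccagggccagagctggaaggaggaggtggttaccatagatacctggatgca
Gstp-ps: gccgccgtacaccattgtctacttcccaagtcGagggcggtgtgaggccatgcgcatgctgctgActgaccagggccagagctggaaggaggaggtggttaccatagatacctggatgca
Morf4l1 encodes a chromodomain protein, also called MRG15, of chromatin-modifying complexes. Its transcript from chromosome 9 and that of Morf4l1-ps1, a processed pseudogene on chromosome 16, differed at 1 of these 120 bases and at 2 of 814 aligned bases.
Morf4l1: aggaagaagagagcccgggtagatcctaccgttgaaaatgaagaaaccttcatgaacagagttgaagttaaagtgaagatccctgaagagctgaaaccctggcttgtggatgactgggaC
Morf4l1-ps1: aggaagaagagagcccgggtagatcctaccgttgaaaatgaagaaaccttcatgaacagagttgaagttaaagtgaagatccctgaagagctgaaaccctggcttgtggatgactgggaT
Ppih encodes cyclophilin H, a peptidyl-prolyl isomerase of the spliceosome. Its transcript from chromosome 4 and that of Gm7879 on chromosome 5 differed at 1 of these 120 bases and at 2 of 566 aligned bases.
Ppih: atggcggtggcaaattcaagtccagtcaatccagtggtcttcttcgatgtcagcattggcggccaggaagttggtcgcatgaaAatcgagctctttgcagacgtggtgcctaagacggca
Gm7879: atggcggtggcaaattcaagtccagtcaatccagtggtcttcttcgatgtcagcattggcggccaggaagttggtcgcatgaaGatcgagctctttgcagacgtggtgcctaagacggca

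The 25 libraries ranged in depth from 5192382 to 8618253 read bases, with a B6 share over all autosomes of 50.6% to 52.1%. The ESC library of JB6 replicate 2 stood apart, with 2867 read bases of Krt8, 1722 of Krt18 and 698 of Acta2, against 61 to 96, 46 to 50 and 9 to 20 in the other 3 ESC libraries. The cultured cells at d12 and d21 had little RNA of dorsal telencephalon: of 8 markers 7 were detected, and their summed level was 20.4 to 43.1 CPM (read bases scaled to the library total after its adjustment by trimmed mean of M-values, TMM) at d12 and 12.5 to 24.4 CPM at d21, against 804 to 973 CPM at E13.5 and 238 to 344 CPM at P0. Emx2, the marker without a value, was not among the features of the tables. A list of 8 cortical neuron markers summed to 114 to 389 CPM at d12 and 1009 to 1367 CPM at d21. In cortex it summed to 849 to 1462 CPM at E13.5 and 7204 to 8116 CPM at P0, so d21 lay within the range of E13.5 and below P0. A list of 12 markers of blood, vessels, microglia and meninges had 6 detected at d12, at d21, at E13.5 and at P0. It summed to 178 to 299 CPM at d12 and 776 to 1024 CPM at d21. In cortex it was 26.9 to 205 CPM at E13.5 and 61.2 to 99.0 CPM at P0. This sum does not speak for each cell type on the list. A list of 10 markers of other lineages, of which 9 were detected at d12, summed to 2015 to 3704 CPM at d12 and 2579 to 3443 CPM at d21, against 2.99 to 31.1 CPM at E13.5 and 5.06 to 10.8 CPM at P0. Most of the culture sum came from Krt8, Krt18 and Acta2, with 5464 to 10864, 4287 to 9524 and 1048 to 11595 read bases at d12. It therefore does not speak for each lineage on the list. In bulk samples fewer cells of a type and less RNA per cell cannot be told apart. Both sexes occur among the E13.5 BJ1 and among the P0 BJ1 libraries, so each of these groups came from more than 1 animal. Nothing else in the labels says that replicates are separate animals or cultures, so p-values measure the spread between these samples, which may be partly technical. One read that spans several strain differences adds several read bases, so the intervals and floors given here cover counting error only.

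In cortex the members lay at the far end of the distribution of shares. The 9645 features had a median B6 share of 50.7%, with 42.1% at the 5th and 62.5% at the 95th percentile. Only 9 features lay below 5% and 4 from 5% to 10%, against 46 features with a B6 share of at least 90% in both crosses. Nearest inside the limit were Mir684-1 with a larger share of 9.41% over the crosses, Hjurp with 9.09% and A730008H23Rik/Hjurp with 8.41%. Nearest outside were Gapdh, a glycolytic enzyme, with 12.2% in BJ1 and 11.9% in JB6, Zfp937 with 11.8% and 13.6%, and Pisd-ps1/Pisd-ps3 with 14.6% and 11.5%. The members were chosen by these cortex shares, which are therefore given as a description without a test.

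**Figure D1:**
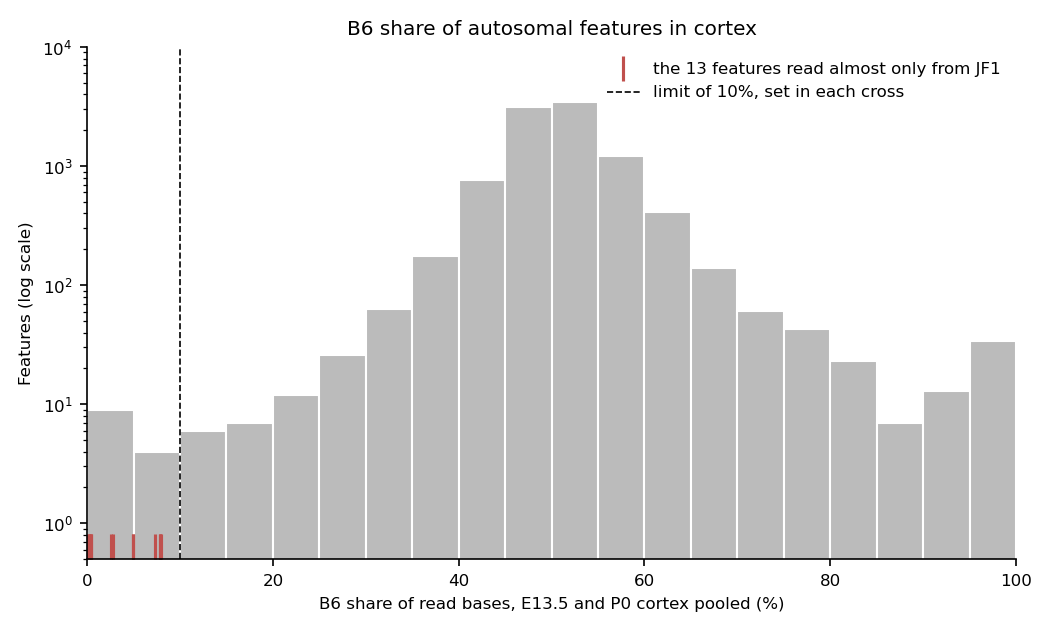
Number of autosomal features (log axis) in each 5-point class of B6 share in cortex, pooled over both crosses at E13.5 and P0. Of 9645 features, 13 lie at a share of at most 10% in both crosses, and the distribution peaks between 45% and 55%.

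The members rested on few strain differences. A member had reads over a median of 3 strain differences, and 12 of 13 (92.3%) over at most 4, against a median of 12 over all 9645 features, of which 1470 (15.2%) had at most 4. Tsnax was the exception with 21 to 25 covered differences per library. A730008H23Rik/Hjurp and Mir684-1 each rested on 1 position in every library, and Akirin1 on 2. The authors removed some positions before counting, per their description file, which names 6252 removed positions in one place and 37985 in its summary. In the pool of the 12 culture libraries these were positions with more than 50 reads where the JF1 base equalled that of CBA or DBA, with less than 10% B6 bases and more than 40% JF1 bases. It therefore acted on positions read mostly from JF1, and its part in the members' values was not tested.

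Tsnax and Morf4l1 had next to no B6 read bases at any stage. Tsnax encodes translin-associated factor X, which with translin forms an RNA-cleaving complex. Over all 25 libraries Tsnax had 15 B6 read bases of 17310 (0.0867%), and 13 libraries had none. Its highest share in any library was 0.258%. Tsnax had 0 B6 read bases of 1721 in ESCs, which allows a share of up to 0.174%, then 3 of 2383 at d12, 4 of 3351 at d21, 3 of 5037 at E13.5 and 5 of 4818 at P0. Morf4l1 had 37 B6 read bases of 13735 (0.269%), with no library above 1.09%. No stage of either gene departed from near absence of the B6 base, and Tsnax showed it over the most positions of any member.

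The 3 Hjurp features kept a small B6 share in every stage. Hjurp is the chaperone that loads the centromeric histone CENP-A. For 6430706D22Rik the B6 share was 13.6% and 11.9% in the BJ1 ESC libraries and 10.4% and 9.45% in the JB6 ESC libraries. At d12 it was 6.98% and 5.63% in BJ1 and 5.88% and 5.53% in JB6, and at d21 5.19% and 4.99% in BJ1 and 4.24% and 5.0% in JB6. In cortex its share ran from 5.35% over a median of 5.52% to 6.91% at E13.5 and from 1.51% over a median of 2.63% to 3.72% at P0. The 4 ESC libraries lay above every later library, and the 7 P0 libraries lay below every other library. A730008H23Rik/Hjurp, counted under a joined name, averaged 14.3 ± 2.15% in ESCs, 9.60 ± 3.68% at d12 and 7.89 ± 0.663% at d21 (SD, n = 4 each), and 8.54 ± 2.95% at E13.5 (SD, n = 6) and 4.43 ± 2.36% at P0 (SD, n = 7). Per the authors' description file, a strain difference inside 2 genes was summed under such a joined name, so this feature holds the position that A730008H23Rik and Hjurp share. The feature named Hjurp had too few read bases in culture for a share per library, with 195 over 12 libraries, of which 7.69% were B6. In cortex it averaged 8.75 ± 2.88% at E13.5 (SD, n = 6) and 5.72 ± 2.23% at P0 (SD, n = 7).

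Ppme1 differed most between culture and cortex in percentage points of pooled B6 share, with 283 B6 read bases of 1285 in culture and 43 of 1516 in cortex. It encodes the methylesterase that removes a methyl group from protein phosphatase 2A. Its B6 share was 17.3%, 27.6%, 40.3% and 24.4% in the 4 ESC libraries, 16.8%, 24.5%, 26.4% and 18.6% at d12, and 20.4%, 25.8%, 18.4% and 16.1% at d21. In cortex it lay between 0% and 7.50% at E13.5, with a median of 2.06%, and between 0% and 5.37% at P0, with a median of 2.61%. Every culture library lay above every cortex library. The B6 allele of Ppme1 stood at 2.87 to 5.63 CPM in culture, against 0 to 1.36 CPM in cortex, and the JF1 allele at 8.01 to 19.4 CPM in culture, against 13.51 to 19.7 CPM in cortex. Because the cortex shares chose Ppme1, no test was made between culture and cortex. The culture lines were male and their B6 parent carried the transgene, the cortex came mostly from females and the cell types differed, and these cannot be told apart.

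**Figure D2:**
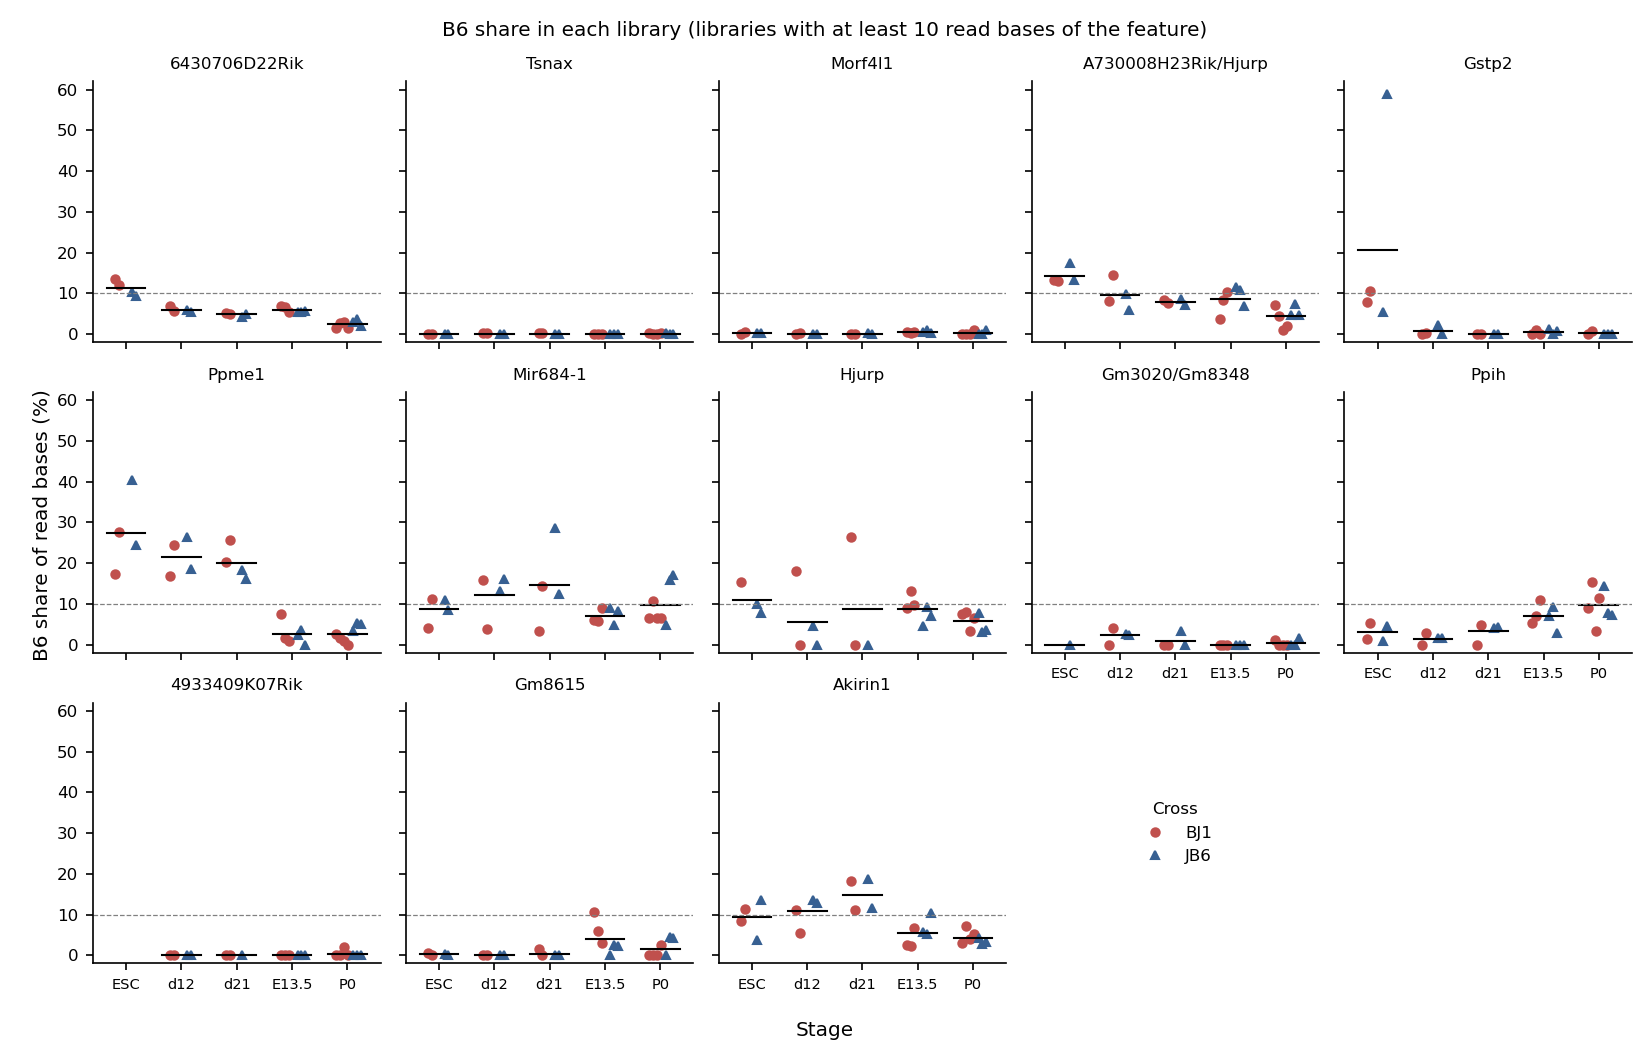
B6 share (%) of the 13 members by stage and cross, with 1 point for each library that has at least 10 read bases of the feature, black lines at the stage means and a dashed line at 10%. The Ppme1 libraries lie at 16.1% to 40.3% in culture and at 0% to 7.50% in cortex, and Tsnax stays at or below 0.258% throughout.

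Akirin1 and Mir684-1 also carried some B6 read bases in culture. Akirin1 encodes a nuclear protein related to the Akirin family of cofactors of transcription. Its share averaged 9.28 ± 4.30% in ESCs, 10.8 ± 3.62% at d12 and 14.9 ± 4.06% at d21 (SD, n = 4 each), and 5.47 ± 3.01% at E13.5 (SD, n = 6) and 4.23 ± 1.54% at P0 (SD, n = 7). Pooled over culture it was 12.4% of 418 read bases, and pooled over cortex 4.92% of 447. The Akirin1 libraries of culture and cortex overlapped, at 3.70% to 18.6% in culture and 2.17% to 10.4% in cortex. The feature named for the microRNA Mir684-1 is placed on chromosome 11 in the deposited tables, whereas RefSeq and GENCODE place the gene of that name on chromosome 2, so its identity is uncertain. Its share was 10.7% of 985 read bases in culture and 7.93% of 1500 in cortex. Ppme1, Akirin1 and Mir684-1 were the 3 members with more than 10% pooled over culture, and the other 10 stayed at or below it.

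Ppih, Gm8615, Gm3020/Gm8348 and 4933409K07Rik were read mostly from JF1 in every stage. Ppih averaged 3.11 ± 2.18% in ESCs, 1.5 ± 1.14% at d12 and 3.32 ± 2.23% at d21 (SD, n = 4 each), and 7.11 ± 2.80% at E13.5 (SD, n = 6) and 9.82 ± 4.2% at P0 (SD, n = 7). It was thus lower in culture, at 2.62% of 688 pooled read bases, than in cortex, at 7.82% of 639, although library values overlapped. 4933409K07Rik, a transcribed pseudogene in RefSeq, had 1 B6 read base of 674 over all libraries. Gm8615, also a transcribed pseudogene, had 15 of 1771, and Gm3020/Gm8348 had 11 of 1158. With 22 read bases of Gm3020/Gm8348 and 10 of 4933409K07Rik in ESCs, a count of 0 there allows shares of up to 13.6% and 30%.

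Gstp2 was read from JF1 in most libraries, with exceptions in ESCs and at P0. At d12 its 4 libraries had 0, 1, 6 and 0 B6 read bases of 295, 324, 258 and 401. At d21 it had 0 B6 read bases of 1152, which allows a share of up to 0.260%. At E13.5 it had 4 of 779 (0.513%). ESCs differed from these stages, with 28 of 355, 47 of 448 and 29 of 545 B6 read bases in 3 libraries, and 36 of 61 (59.0%) in JB6 replicate 2. Gstp2 had reads over 5 strain differences in each of the first 3 ESC libraries and over 3 in JB6 replicate 2, against 1 to 3 at d12, d21 and E13.5, so the shares of the stages rest in part on different positions. The JB6 replicate 2 library, the one rich in Krt8, had 25 JF1 read bases of Gstp2, against 327 to 516 in the other 3, while its B6 read bases lay within their range of 28 to 47. At P0, BJ1 replicates 1 and 3 had 1 Gstp2 read base each, against 126 to 228 in the other 5 libraries. The neighbour Gstp1 had 111 and 71 read bases in the same 2 P0 libraries, against 61 to 104 in the other 5, and 51 in the ESC library, against 71 to 90 in the other 3. In these 3 libraries Gstp1 was thus at or near the range of its stage while the JF1 read bases of Gstp2 lay far below it. The cause was not tested.

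**Figure D3:**
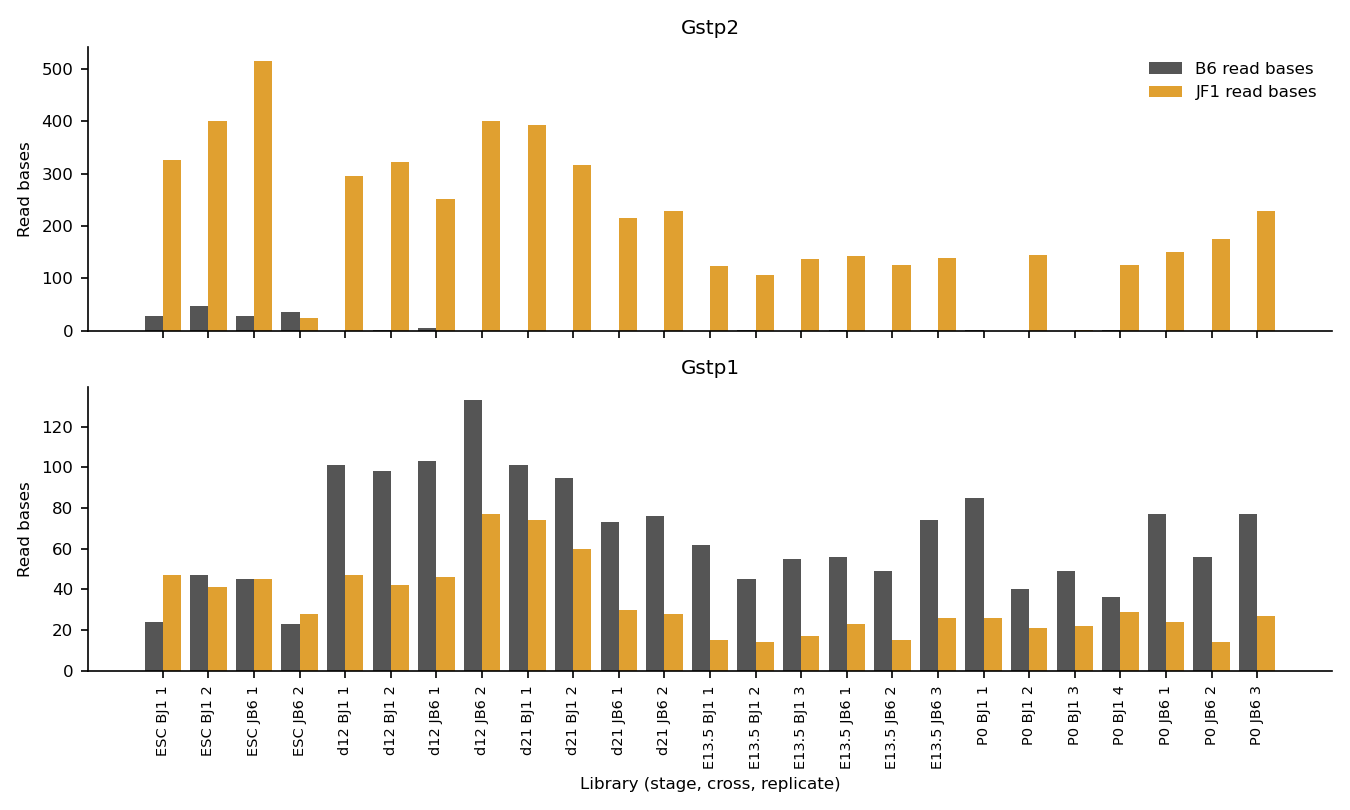
Read bases of Gstp2 and Gstp1 in each of the 25 libraries, split into B6 and JF1 bases, by stage. ESC JB6 replicate 2 has 25 JF1 read bases of Gstp2, and P0 BJ1 replicates 1 and 3 have 1 read base each.

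The culture libraries did not enter the choice of members, so the strain term could be tested there, and the JF1 allele was higher for nearly every member. With edgeR's quasi-likelihood test over all autosomal features, adjusted by the Benjamini-Hochberg method and called at an adjusted p under 0.05, 9 of 10 members tested were higher from JF1 in ESCs, against 18.5% of 8991 features tested. At d12 it was 11 of 11 members, against 15.4% of 10345 features, and at d21 11 of 11, against 14.8% of 11047 features. Hjurp and 4933409K07Rik had too few read bases in culture for the test, and Gm3020/Gm8348 had too few in ESCs. The smallest bias belonged to Ppme1, with a log2 ratio of B6 to JF1 of −1.43 ± 0.225 in ESCs (SE, adjusted p = 1.22e-05), −1.89 ± 0.203 at d12 (adjusted p = 4.19e-19) and −2.0 ± 0.164 at d21 (adjusted p = 6.10e-13). For 6430706D22Rik the ratio was −2.97 ± 0.0925 in ESCs, −3.97 ± 0.0971 at d12 and −4.31 ± 0.117 at d21. Akirin1 had −3.25 ± 0.437, −3.03 ± 0.434 and −2.50 ± 0.313 at these stages, with edgeR adjusted p-values of 1.27e-06, 4.43e-11 and 2.44e-08. When each library was left out in turn, no member that was still tested lost its strain call.

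Gstp2 in ESCs was the 1 member tested that was not called. Its log2 ratio there was −3.04 ± 0.846 (SE, edgeR adjusted p = 0.111). Without the ESC library of JB6 replicate 2 it was −3.71 ± 0.134 (edgeR adjusted p = 1.52e-159), and 10 of 10 members were called. Without JB6 replicate 1 the ratio was −1.38 (edgeR adjusted p = 3.30e-08), where the library that stood apart was the only one of its cross. DESeq2 on all 4 libraries gave −2.58 (adjusted p = 0.0226).

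No member was called for the parental term, which asks whether the maternal and the paternal allele differ. The rule favoured this, because a B6 share of at most 10% in both crosses leaves out genes that follow the parent in cortex. In edgeR 0 of 10 members were called in ESCs, 0 of 11 at d12 and 0 of 11 at d21, against 1.40%, 1.78% and 1.38% of all features in either direction. DESeq2 also called 0 at each stage. At these shares of all features, 0 calls among so few members is the usual outcome and says little about them. Where a member had 0 B6 read bases, as Tsnax in ESCs, Gm8615 at d12 and Gstp2 at d21, the term could hardly be estimated. Tsnax at d21 was the 1 member with an unadjusted p under 0.05 (edgeR adjusted p = 0.540), with 2 B6 read bases in each BJ1 library and 0 in each JB6 library. Gstp2 in ESCs was called without JB6 replicate 1 (edgeR adjusted p = 2.90e-15) and in no other fit that was run.

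Between culture stages 1 member changed its strain ratio. 6430706D22Rik had a lower B6 to JF1 ratio at d12 than in ESCs, by −0.996 ± 0.153 on the log2 scale (SE, edgeR adjusted p = 8.08e-06), where 10.7% of 8513 features were lower and 19.5% changed in either direction. Every d12 library lay below every ESC library. The other 9 members tested were not called, among them A730008H23Rik/Hjurp of the same gene with −0.63 ± 0.306 (edgeR adjusted p = 0.163) and Ppme1 with −0.46 ± 0.310 (adjusted p = 0.35). Gstp2 had −4.80 ± 2.0 (edgeR adjusted p = 0.210), and without ESC JB6 replicate 2 it had −4.13 ± 0.536 (adjusted p = 8.15e-07), which then made 2 of 10 members. Between d21 and d12, 0 of 11 members were called, against 1.82% of 10095 features, and none had an unadjusted p under 0.05 in edgeR. DESeq2 likewise called 0.

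The summed level of both alleles was scaled by TMM and compared between stages. Because read bases depend on the number of strain differences, levels are compared within a feature only. From ESCs to d12, Gm8615 fell most and Gm3020/Gm8348 rose most. Gm8615 stood at 8.12, 6.50, 9.22 and 7.00 CPM at d12, against 47.1, 38.4, 52.9 and 33.0 CPM in ESCs, and the groups did not overlap (log2 change −2.48 ± 0.222, SE, edgeR adjusted p = 1.94e-10). Gm3020/Gm8348 stood at 7.33, 13.2, 5.75 and 14.5 CPM at d12, against 0.676, 0.759, 0.225 and 3.25 CPM in ESCs, which rested on 1 to 14 read bases per ESC library (3.07 ± 0.499, adjusted p = 4.49e-06). The comparison required a mean of 20 read bases per library over both stages. Gm3020/Gm8348, with 22 read bases in ESCs and 268 at d12, met it only through d12, which favours a rise. In all, 2 of 11 members rose and 4 fell, against 37.5% and 40.1% of 10484 features. The median log2 change was −0.23 for the members and −0.06 for all features. Morf4l1 (−0.81 ± 0.145) and Ppih (−0.97 ± 0.225) fell, with no ESC library within the range of d12. Mir684-1 changed by −1.53 ± 0.482 (edgeR adjusted p = 0.00612), a call that was lost without ESC JB6 replicate 2 (−0.88, adjusted p = 0.0819). A730008H23Rik/Hjurp rose by 0.63 ± 0.251 (edgeR adjusted p = 0.0249), a change of 0.96 without that library, and of 0.71 with an adjusted p of 0.0772 when fitted on these 2 stages alone.

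From d12 to d21, Ppih and the 2 larger Hjurp features fell. Ppih stood at 1.84, 2.68, 3.61 and 3.85 CPM at d21, against 7.92, 6.50, 9.53 and 14.6 CPM at d12, with no overlap (log2 change −1.69 ± 0.250, SE, edgeR adjusted p = 3.91e-06). 6430706D22Rik changed by −0.78 ± 0.139 and A730008H23Rik/Hjurp by −0.85 ± 0.248. Tsnax rose by 0.43 ± 0.102, to a mean of 122 ± 9.64 CPM at d21, against 91.1 ± 15.0 CPM at d12 (SD, n = 4 each). In all, 2 of 11 members rose and 4 fell, against 26.2% and 26.0% of 11255 features. The rise of Gm8615 (0.62 ± 0.222, edgeR adjusted p = 0.0224) was lost without any of 3 libraries, d12 BJ1 replicate 2, d12 JB6 replicate 2 or d21 JB6 replicate 1, at adjusted p-values of 0.0535 to 0.0718. The fall of Morf4l1 (−0.38 ± 0.145, edgeR adjusted p = 0.0292) was lost without d12 BJ1 replicate 1, d21 BJ1 replicate 2, d21 JB6 replicate 2 or d12 JB6 replicate 2, where it was −0.18 (adjusted p = 0.252).

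From E13.5 to P0, the Hjurp features, Ppih, Akirin1, Tsnax and Mir684-1 fell. 6430706D22Rik ran from 70.1 over a median of 81.7 to 83.3 CPM at P0, against 188 over 228 to 254 CPM at E13.5, and the stages did not overlap (log2 change −1.49 ± 0.109, SE, edgeR adjusted p = 3.32e-12). Its B6 allele stood at 1.97 ± 0.636 CPM at P0, against 13.2 ± 1.74 CPM at E13.5, and its JF1 allele at 77.6 ± 4.79 CPM at P0, against 212 ± 23.4 CPM at E13.5 (SD, n = 7 and 6). A730008H23Rik/Hjurp changed by −1.34 ± 0.199 and Hjurp by −0.92 ± 0.161, so that all 3 features of the gene fell. Ppih changed by −1.21 ± 0.186, Akirin1 by −0.56 ± 0.172 and Mir684-1 by −2.03 ± 0.381. 4933409K07Rik rose by 0.80 ± 0.257, to 7.60 ± 1.45 CPM at P0, against 4.37 ± 1.08 CPM at E13.5 (SD, n = 7 and 6). In all, 1 of 13 members rose and 7 fell, against 36.1% and 39.8% of 10877 features, with a median log2 change of −0.27 for the members and −0.06 for all features. The 7 that fell include the 3 features of the Hjurp gene, so they are not 7 separate loci. Scaling by size factors (RLE) moved the median log2 change of all features to 0.11 and gave 4 members higher and 6 lower, without Tsnax and with Gm3020/Gm8348, Gm8615 and Ppme1 added. The fall of Tsnax (−0.27 ± 0.0801, edgeR adjusted p = 0.00373) was lost with RLE scaling, at −0.10 in edgeR (adjusted p = 0.274) and in DESeq2 (adjusted p = 0.234). Akirin1 was at −0.39 in both, called in edgeR with RLE (adjusted p = 0.0425) and not in DESeq2 (adjusted p = 0.0512).

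**Figure D4:**
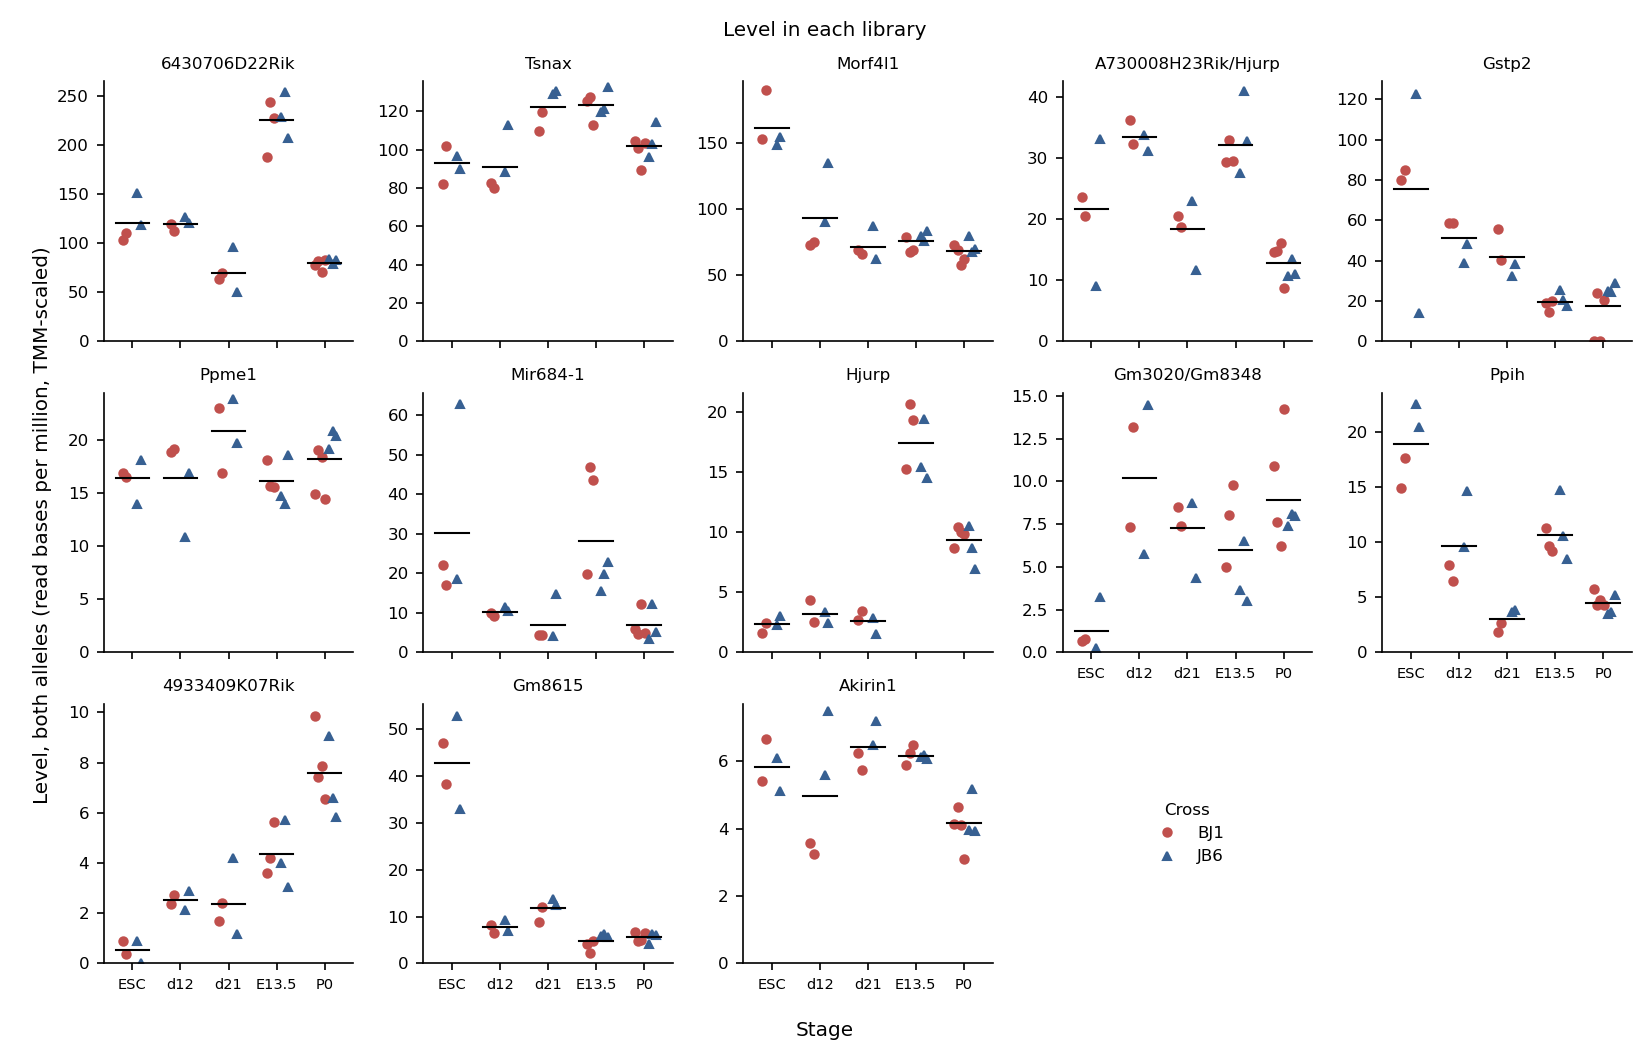
Level of both alleles (TMM-scaled CPM, linear axes with a scale of their own in each panel) of the 13 members in each of the 25 libraries, by stage and cross, with black lines at the stage means. 6430706D22Rik stands at 188 to 254 CPM at E13.5 and at 70.1 to 83.3 CPM at P0.

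Culture and cortex levels were compared at day 12 with E13.5 and at day 21 with P0. The dorsal telencephalon list and the list of other lineages given above differed far more between culture and cortex than any member did. The part of such differences in cell types in the members' levels was not tested. At d12 against E13.5, 4 of 13 members were higher and 5 lower, against 38.0% and 41.5% of 10930 features. Members were chosen with a floor of 200 read bases per cross in cortex and no floor in culture, which favours features lower in culture. The comparison itself required a mean of 20 read bases per library over both stages. Hjurp, with 78 read bases at d12 and 709 at E13.5, met it only through E13.5, as did 4933409K07Rik, with 65 and 176. The feature named Hjurp was lower, at 4.36, 2.53, 3.33 and 2.41 CPM at d12, against 14.5 over a median of 17.3 to 20.6 CPM at E13.5 (log2 difference −2.47 ± 0.218, SE, edgeR adjusted p = 1.56e-10). A730008H23Rik/Hjurp of the same gene was not called, at 0.05 ± 0.222 (edgeR adjusted p = 0.837). 6430706D22Rik (−0.91 ± 0.128), Mir684-1 (−1.47 ± 0.450) and Tsnax (−0.44 ± 0.0944) were also lower, and Gm8615 was higher (0.68 ± 0.213). The calls of 4 members were lost without 1 library. For 4933409K07Rik (−0.77) these were d12 BJ1 replicates 1 and 2, d12 JB6 replicate 1, E13.5 BJ1 replicate 3 and E13.5 JB6 replicate 2, at edgeR adjusted p-values of 0.0519 to 0.0827. For Gm3020/Gm8348 (0.80) these were d12 BJ1 replicate 2, E13.5 BJ1 replicate 1, E13.5 JB6 replicates 1 and 3 and d12 JB6 replicate 2, where the difference was 0.48 (adjusted p = 0.246). For Morf4l1 (0.30) these were E13.5 BJ1 replicates 2 and 3, E13.5 JB6 replicates 1 and 2 and d12 JB6 replicate 2, where the difference was 0.09 (adjusted p = 0.475). With the replicate number as a block, Gm3020/Gm8348 (edgeR adjusted p = 0.0815), Gstp2 (0.135) and Morf4l1 (0.119) were not called, which left 6 members. Gstp2 (1.41 ± 0.625, edgeR adjusted p = 0.0435) was lost without any library of the 2 stages but d12 JB6 replicate 1, at adjusted p-values of 0.0507 to 0.106. Without the 3 libraries low in Gstp2, none of which is of these stages but which share the estimate of the spread, it was 1.40 ± 0.170 (adjusted p = 9.37e-08).

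At d21 against P0, 4 of 13 members were higher and 3 lower, against 40.3% and 40.5% of 11529 features. Gm8615 was higher, at 8.93, 12.1, 13.7 and 12.5 CPM at d21, against 4.11 over a median of 6.08 to 6.61 CPM at P0, with no overlap (log2 difference 1.04 ± 0.195, SE, edgeR adjusted p = 2.79e-05). Akirin1 was higher by 0.61 ± 0.191. 4933409K07Rik was lower, at 1.70, 2.42, 4.22 and 1.17 CPM at d21, against 5.82 over a median of 7.44 to 9.85 CPM at P0 (−1.66 ± 0.316). The feature named Hjurp was also lower (−1.79 ± 0.216). These 2 features met the floor of the comparison only through P0, with 66 and 74 read bases at d21, against 357 and 432 at P0. A730008H23Rik/Hjurp (0.54, edgeR adjusted p = 0.0312) was not called without any of 6 libraries, d21 BJ1 replicates 1 and 2, d21 JB6 replicate 1, P0 BJ1 replicate 4 and P0 JB6 replicates 1 and 3, at adjusted p-values of 0.0512 to 0.140. 6430706D22Rik was at −0.21 ± 0.124 (edgeR adjusted p = 0.130), so the 3 features of the Hjurp gene did not go the same way. Ppih (−0.63) was not called without d21 BJ1 replicate 1 (−0.48, adjusted p = 0.0844) or without the 3 libraries low in Gstp2 (−0.47, adjusted p = 0.0856). Tsnax (0.26) was not called without d21 BJ1 replicate 2 (0.24, adjusted p = 0.0515). With RLE scaling 2 members were higher and 4 lower, without A730008H23Rik/Hjurp and Tsnax and with 6430706D22Rik added among the lower. Gstp2 was at 1.28 (edgeR adjusted p = 0.0588) with all libraries and at 0.76 (adjusted p = 4.90e-04) without the 3 libraries low in it, where its change from ESCs to d12 was −0.91 (adjusted p = 2.04e-04) and that from E13.5 to P0 0.35 (adjusted p = 0.0636).

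Near-identical relatives were common among the members. Of 9 member genes with a GENCODE transcript of at least 200 bases, 5 (55.6%) matched a transcript of another gene over at least 200 bases at 98% identity or more, against 439 of 9608 features with the floor met (4.57%). Over most of the transcript, by the length aligned, it was 3 of 9 (33.3%), against 116 of 9608 (1.21%). Beside the 3 sets of sequences above, Gm3020 matched 23 other genes, among them Gm10409 over 1933 bases at 100% identity, and Gm8615 matched Gnpda1, a glucosamine-6-phosphate deaminase gene on chromosome 18, over 753 bases at 99.1%. Tsnax, Hjurp, Ppme1 and Akirin1 had no such match. 6430706D22Rik and 4933409K07Rik were not paired with a transcript, and the transcript named Mir684-1 has 86 bases, too few for a match, so these 3 features were not assessed. Reads of such genes can be split between copies in ways the authors' counting does not show, so the members' own values are uncertain there.

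Of the 5 relatives with read bases under a name of their own, 3 were read mostly from B6 when pooled over culture and over cortex. The other 2, both relatives of Gm3020, were not. Gnpda1 had a B6 share of 96.2% of 3299 read bases in culture and 96.6% of 971 in cortex, where Gm8615 had 0.229% and 2.59%. Gm3002, a relative of Gm3020 that is also on chromosome 14, had 93.0% of 1231 read bases in culture and 93.0% of 9752 in cortex. Gstp1 had 61.9% of 1484 read bases in culture and 73.6% of 1034 in cortex. In ESCs alone Gstp1 was not mostly from B6, with 33.8% and 53.4% in the BJ1 libraries and 50% and 45.1% in the JB6 libraries. Gm10406, another relative of Gm3020, had 33.3% of 120 read bases in culture and 48.7% of 491 in cortex. Gm3696, also a relative of Gm3020, had 23.3% of 120 read bases in culture and 44.5% of 371 in cortex. Whether reads of one strain's allele were placed on the other gene was not tested.

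Genes near the members in gene order were mostly read from both alleles. As neighbours served up to 3 features on either side in RefSeq order that had at least 400 read bases in cortex. Features with fewer read bases, other members and joined names were passed over, so a neighbour need not be the adjacent gene. The 56 neighbours had a median B6 share of 51.6%, and 53 of them lay between 20% and 80%. Of the 56, 41 lay from 40% to 60%. Over all 9645 features the 5th and 95th percentiles were 42.1% and 62.5%, so the neighbours were spread more widely. The 3 neighbours outside 20% to 80% were read mostly from B6. They were D830030K20Rik with 95.9% and Gm3002 with 93.0% near Gm3020/Gm8348, and Hmgb1 with 96.0% of its read bases near Gm8615. The nearest neighbours taken were Egln1 with 52.3% and Sipa1l2 with 50.1% for Tsnax. For the Hjurp locus they were Usp40 with 50.9% and Arl4c with 54.7%. Ppih, 4933409K07Rik and Akirin1 share chromosome 4.

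Lists of genes with a known property held 1 member in all, and they are too short for these counts to be read against 13 members among 9645 features. None of the 5 genes with the floor met on a list of alleles that are deficient in C57BL/6J was a member, and their B6 shares in cortex ran from 19.1% to 68.4%. Of 61 genes on a list of genes with many processed copies 1 was a member, Morf4l1, and the median share of the list was 51.2%. None of 6 genes of the major histocompatibility complex region was a member, with a median share of 44.1%. The median of all 9645 features was 50.7%.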

How the data were processed

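RNA was sequenced from 25 hybrid libraries, and libraries of non-hybrid E14 cells were not analysed here. CASAVA 1.8.2, Novoalign, HTSeq, edgeR and the build mm9 are named in the submitters' processing notes. The authors deposited raw counts: per gene, library and parental allele, the sense-strand read bases at all strain differences of the gene, with bases taken by SAMtools mpileup 0.1.18, per their description file. The deposited tables also give another column, the number of strain differences covered, which was used as it stands. Members and gene lists were chosen with earlier results of these data known.

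Here each library entered allelic fits as 1 column per allele with the same library size, with terms for library, strain and parent, in edgeR 4.0.16 (R 4.3.3, limma 3.58.1), quasi-likelihood test, for autosomal features averaging 20 or more read bases per library. The change in strain ratio used the 12 culture libraries alone. For levels, both alleles were summed and scaled by TMM in 1 fit of all 25 libraries with terms for stage and cross, for features listed at both stages. P-values were adjusted by Benjamini-Hochberg over all features tested. The edgeR fits were first tried on simulated data for some terms only. These were the ESC strain and parental terms, the change in strain ratio at d12 against ESC and the level at P0 against E13.5. Cortex strain ratios chose the members and were not tested. Alternatives were DESeq2 1.42.0, TMM for each allele, size factors (RLE), counts divided by 3, no floor, only the 2 stages compared, mitochondrial genes left out, female libraries, a replicate block and each library left out in turn. Fits without the 3 libraries low in Gstp2 were added after seeing the data. Same-numbered replicates correlated at −0.327 to 0.139 and so were not treated as pairs. The chi-square per degree of freedom between replicates of a group was 3.91 or more, but it takes read bases as independent, so it does not settle whether 2 replicates differ beyond sampling noise. Relatives were found with BLAST 2.17.0 in GENCODE M21 transcripts, and neighbours by RefSeq order on GRCm38, whereas the counts are on mm9, so no coordinates are given. Named members are the 12 with most cortex read bases, those on a list, nearest the limit, highest in culture, with the largest level changes, beside each other or called for the parental term. Akirin1 falls outside this rule and was named, as the 1 remaining member, after its values were seen. Intervals in results are 95% Wilson intervals, and a count of 0 allows 3 counts. Python 3.11.15 and matplotlib 3.10.9 drew the plots.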

Additional observations from a re-analysis of the deposited data

Results flagged for a closer look

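Of 113 groups of 4 to 7 libraries examined, 10 had 1 library far from the others. Chance gives about 1 in 20 groups where values vary smoothly, and several of these values rest on 1 or 2 B6 read bases. Where every other library had a share of 0%, any share above 0% was flagged, so that rate does not apply to such groups. In ESCs, JB6 replicate 2 had a Gstp2 B6 share of 59.0%, against 5.32% to 10.5% in the other 3 libraries, and a Mir684-1 level of 62.7 CPM, against 17.1 to 22.1 CPM. In the same stage JB6 replicate 1 had a share of 17.5% for A730008H23Rik/Hjurp, against 12.96% to 13.4%, and BJ1 replicate 2 a Morf4l1 level of 190 CPM, against 148 to 154 CPM. At d12, JB6 replicate 1 had a Gstp2 share of 2.33%, against 0% to 0.309%. At d21, JB6 replicate 2 had a Mir684-1 level of 14.7 CPM, against 4.22 to 4.46 CPM. Also at d21, JB6 replicate 1 had shares of 0.345% for Morf4l1 and 3.45% for Gm3020/Gm8348, and BJ1 replicate 1 had 1.59% for Gm8615, with 0% in the other 3 libraries each time. At P0, BJ1 replicate 3 had a share of 2.08% for 4933409K07Rik, against 0% in the other 6.

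The strain ratio of 6430706D22Rik differed between stages, with a log2 ratio of B6 to JF1 lower at d12 than in ESCs by −0.996. Over the alternatives run it lay between −1.08 and −0.92, with adjusted p-values from 1.48e-06 to 0.00153 in edgeR or DESeq2.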

How the results depend on the processing

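The number of members was 7 with a limit of 5%, 24 with 20%, 16 with a floor of 100 read bases and 8 with a floor of 500. Members called for the strain term numbered 9 to 10 in ESCs, 11 to 12 at d12 and 10 to 11 at d21 when each library was left out in turn, and those called for the parental term 0 to 1 in ESCs, the 1 being Gstp2. The change in strain ratio between d12 and ESCs was called for 2 members with DESeq2 and for 2 without the 3 libraries low in Gstp2, and for 1 to 2 when each library was left out, with Gstp2 as the addition in each case. Level calls numbered 5 to 6 for d12 against ESC, 5 to 6 for d21 against d12, 8 to 9 for P0 against E13.5, 6 to 8 for d12 against E13.5 and 5 to 7 for d21 against P0 when each library was left out. With replicate number as a block, level calls numbered 6, 5, 8, 6 and 6 in that order, so the block moved d12 against E13.5 most, and Morf4l1 at d21 against d12 (adjusted p = 0.0555) and A730008H23Rik/Hjurp at d21 against P0 (adjusted p = 0.0886) were also lost. For the allelic fits no separate block could be made, because the library term already holds the replicate. Of 938 alternatives over 69 results of single members, 873 kept direction and side of the threshold, 61 kept direction and lost the call, 4 gained it and 0 reversed. Why calls were lost was not tested. Low read bases limit the shares of Hjurp, 4933409K07Rik and Gm3020/Gm8348 in culture.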
